A study of Mus musculus with 6 samples.

Results

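The 84 genes described here carry the names of the proteins of the cytosolic ribosome. They were chosen by name among the 23284 genes counted in mouse liver: 51 genes are of the large subunit, with symbols that start with Rpl, and 33 are of the small subunit, with symbols that start with Rps. Kinases of ribosomal protein S6, entries named as pseudogenes and mitochondrial ribosomal proteins were left out (the member Rps4y2 is treated below), and the rule that chose them uses names only. Liver RNA was sequenced from 6 C57BL/6 mice, which were 8 weeks old and male by the general methods of the study. All were fasted overnight, and 3 were given vehicle and 3 were given FGF19 at 1 mg/kg for 6 h, still without food, with 1 library per mouse. FGF19 is the human form of an intestinal hormone released after a meal, whose mouse form is FGF15, and the study asked which liver genes it changes. The values are raw numbers of reads on the exons of each gene, given below as CPM, which are counts scaled to a common library size by TMM, or as RPKM, which are the same values per kilobase of exon.

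The ribosome joins a large subunit, which forms peptide bonds, and a small subunit, which reads the messenger RNA. Each of its proteins is needed in about the same number of copies as the others, and in mammals most of their messenger RNAs begin at a C followed by a run of pyrimidines. Through this 5′ terminal oligopyrimidine start, called TOP, mTORC1 and the factor Larp1 control their translation in response to nutrients and growth signals. In liver, feeding and fasting are known to change ribosome production, mainly at the levels of translation and of ribosomal RNA synthesis.

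The start of each gene in the files' mouse genome build mm9 was read from 60 bases before to 20 bases after its first annotated base, on the strand of the gene. In these windows, 15 of 84 ribosomal protein genes (17.9%) had a C followed by 4 C or T at the first annotated base, compared with 2.22% of 23102 genes at 1 locus. The letters CTTTC were found on the gene strand in 31.0% of the ribosomal protein genes and in 9.32% of all genes, and this motif can lie within the pyrimidine run. CCGGAAG, the letters preferred by ETS factors, was found on either strand in 25% and in 6.27%. A match is only a description of the letters, and an annotated start that is off by a few bases hides a TOP start. The windows below are shown because Rps6, Rpl11 and Rpl35 have long TOP starts, and because the results return to Rps21, Rpl36 and Rpl3. Capitals mark the pyrimidine run from the first base and the letters CCGGAAG.
Rps6, chr4:86503252-86503331, minus strand: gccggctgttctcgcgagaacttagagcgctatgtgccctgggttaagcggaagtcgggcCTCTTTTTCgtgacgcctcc
Rpl11, chr4:135609267-135609346, minus strand: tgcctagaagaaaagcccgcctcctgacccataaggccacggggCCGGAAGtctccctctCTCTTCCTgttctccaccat
Rpl35, chr2:38860632-38860711, minus strand: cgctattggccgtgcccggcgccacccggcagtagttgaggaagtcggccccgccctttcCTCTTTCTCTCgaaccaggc
Rps21, chr2:179992024-179992103, plus strand: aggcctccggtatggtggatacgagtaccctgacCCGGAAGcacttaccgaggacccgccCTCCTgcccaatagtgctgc
Rpl36, chr17:56752758-56752837, plus strand: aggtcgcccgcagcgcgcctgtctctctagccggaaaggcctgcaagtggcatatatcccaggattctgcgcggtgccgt
Rpl3, chr15:79913817-79913896, minus strand: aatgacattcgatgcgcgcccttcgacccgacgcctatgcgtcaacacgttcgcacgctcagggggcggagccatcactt

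Total counts were between 18994654 and 22920056 per liver, so that a gene without a read may still have had 3, which is 0.131 to 0.158 CPM, by counting error alone. The summed level of 10 hepatocyte markers such as Alb and Apoa1 was 104414 to 108992 CPM in the vehicle livers and 97041 to 107876 CPM in the FGF19 livers, and all 10 were detected. FGF19 livers 1 and 2, at 102190 and 97041 CPM, were below every vehicle liver and liver 3, at 107876 CPM, was among them. The median log2 fold change of these markers was -0.14 with 0 called, and without FGF19 liver 3 it was -0.24 with 3 called lower (7.30% of all genes tested in that fit). Summed T and NK lymphocyte markers were 2.24 to 3.82 CPM with vehicle and 3.76 to 5.79 CPM with FGF19. Of 4 tested, 3 were above 0, with a median log2 fold change of 0.88. B lymphocyte markers summed to 5.58 to 9.68 CPM and 4.30 to 6.16 CPM, with all 5 tested below 0 (median -0.82). Erythroid markers summed to 57.8 to 79.4 CPM and 43.6 to 57.7 CPM, without overlap, and the 1 tested was at -0.51. Stellate cell markers summed to 228 to 315 CPM and 225 to 277 CPM, with 6 of 10 below 0 (median -0.10). In each of these lists 0 were called (2.84% of all genes lower and 4.56% higher). Summed neutrophil markers were 2.48 to 3.87 CPM in the vehicle livers and 6.56 to 9.37 CPM in the FGF19 livers, with 1 of 3 tested markers called higher (4.56% of all genes tested), and Mpo and Camp stood at 3 counts or fewer throughout. When FGF19 liver 3 was left out, 3 of 4 tested neutrophil markers were called higher (8.00% of all genes tested in that fit). Of the macrophage markers, which summed to 307 to 367 CPM and 300.1 to 371 CPM, 2 of 11 were called higher and 5 of 11 had log2 fold changes below 0, and without FGF19 liver 3 there were 1 lower and 3 higher. Of the sinusoidal endothelial markers 1 of 10 was called higher, and without FGF19 liver 3 there were 1 lower and 1 higher. Of the cholangiocyte markers 0 of 6 were called and 5 were below 0, with a median log2 fold change of -0.27. Without FGF19 liver 3 their median was -0.43 and 1 was called lower. In that fit 1 of 2 erythroid markers was called lower and 1 of 10 stellate cell markers higher, beside 7.30% and 8.00% of all genes tested. The part of these cells in the results was not tested, and in bulk liver fewer cells of a type and less RNA per cell cannot be told apart.

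The third FGF19 liver stood apart from the first 2 for these genes. FGF19 livers 1 and 2 were both below every vehicle liver for 61 of the 78 ribosomal protein genes tested, where 24.3% of the other genes tested showed this order. FGF19 liver 3 was below every vehicle liver for 6 genes, above every vehicle liver for 45 and the highest of the FGF19 livers for 77, where the shares of the other genes were 32.9%, 31.9% and 42.0%. As the median over the 78 genes of log2(CPM + 0.5) minus the vehicle mean, the vehicle livers were at -0.03, -0.02 and 0.06, FGF19 livers 1 and 2 at -0.15 and -0.18, and FGF19 liver 3 at 0.09.

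Exon length moved with the same split of libraries. The ribosomal protein genes tested are short, with a median of 717.5 exon bases compared with 2856 for the other genes. The 807 other genes of at most 1000 exon bases had library medians of -0.16 and -0.19 in FGF19 livers 1 and 2 and of 0.04 in FGF19 liver 3, close to the values of the ribosomal protein genes. For the 2861 other genes of more than 1000 and up to 2000 bases the medians were -0.08, -0.08 and 0.07, and for the 8813 longer genes they were 0.05, 0.05 and -0.03. In the vehicle livers, the medians of these 3 length classes lay between -0.01 and 0.03. Short genes that do not encode ribosomal proteins were thus low in the same FGF19 livers, and long genes were not.

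**Figure D1:**
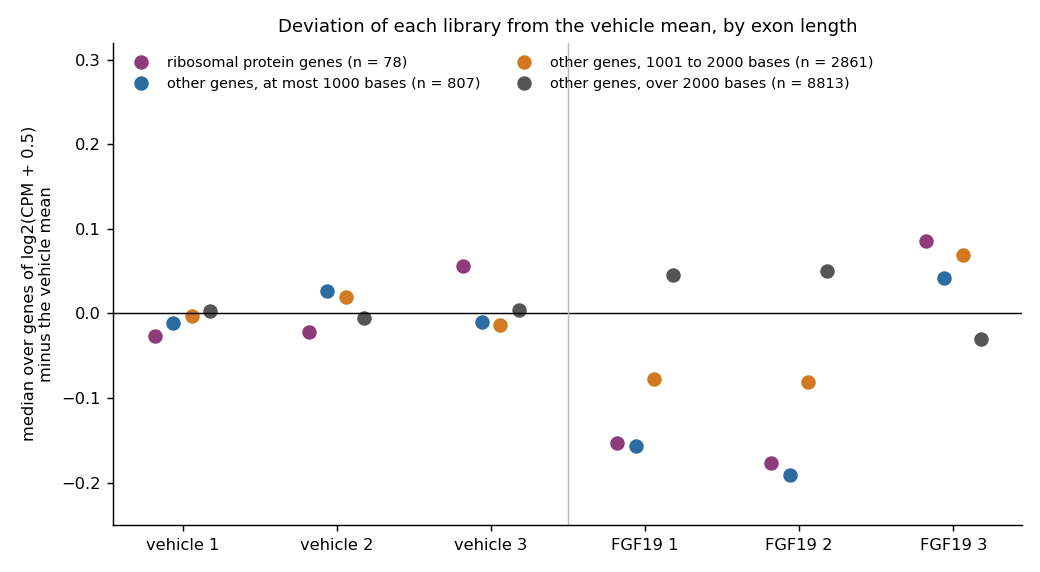
Median over genes of log2(CPM + 0.5) minus the vehicle mean (vertical axis) in each of the 6 libraries (horizontal axis), for the 78 ribosomal protein genes tested and for other genes in 3 classes of exon length. Ribosomal protein genes and other genes of at most 1000 bases lie together, low in FGF19 livers 1 and 2 and above 0 in FGF19 liver 3.

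To ask how abundant these messages were, levels were compared per kilobase of exon. Ribosomal protein genes were among the most abundant in liver, and 40 of the 78 tested were among the 1000 genes with the highest mean CPM. Their median level was 165 RPKM, with 153 RPKM for large subunit genes and 173 RPKM for small subunit genes. Rplp1, an acidic protein of the stalk that recruits translation factors, was highest at 501 ± 36.9 RPKM (SD, n = 6). It was followed by Rps2, which lies at the entry of the messenger RNA, at 391 ± 39.5 RPKM, and by Rps18, of the head of the small subunit, at 388 ± 30.5 RPKM. These last values and those of Rpl4 (386 ± 21.4 RPKM) and Rpl7a (379 RPKM) differed by less than their spread over livers.

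At the low end, Rpl22l1, a paralog of Rpl22, had 18.7 ± 2.57 RPKM and Rps15a had 12.5 ± 0.635 RPKM. The annotation gives Rps15a 5134 exon bases, the most of any tested member, and its level in CPM was 63.0 ± 1.01 in the vehicle livers (SD, n = 3). Rps27, a zinc-binding protein of the small subunit, had only 1.58 ± 0.386 RPKM, from 14 to 26 reads per liver. The entry Gm9846 covers 60% of its exon bases on the same strand and had 0 counts, and reads on more than 1 gene were left out. The level of Rps27 in the files is therefore a lower limit of its messenger RNA.

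**Figure D2:**
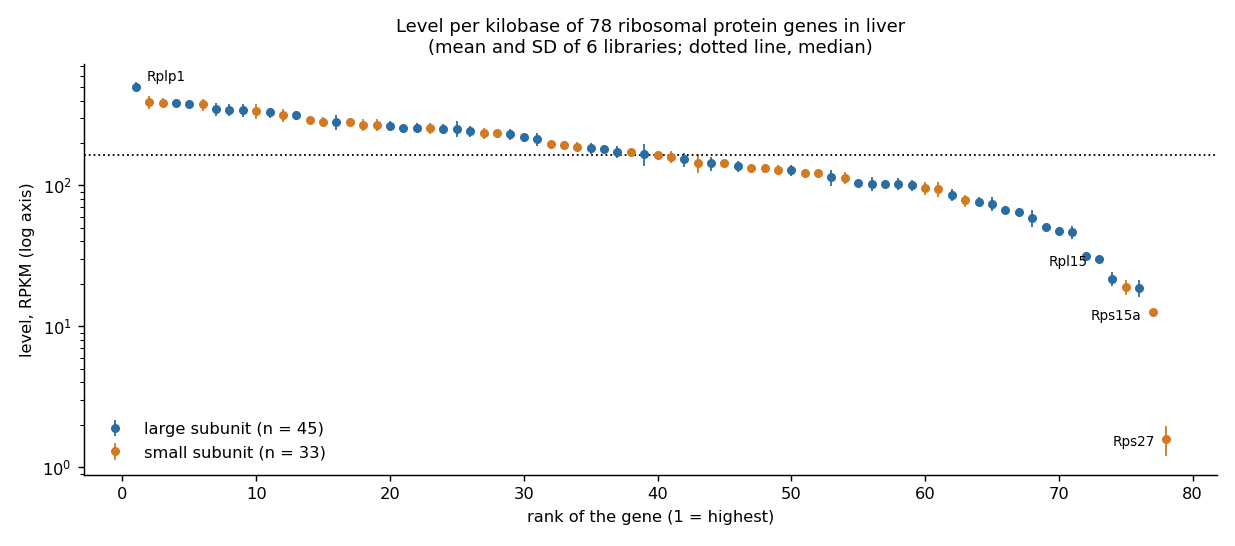
Mean level in RPKM with its SD over 6 livers (vertical log axis) for the 78 ribosomal protein genes tested, in the order of their levels (horizontal axis). Most lie near the median of 165 RPKM, with Rplp1 highest at 501 RPKM and Rps27 far below the others at 1.58 RPKM.

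The 6 members too low in reads to be tested were all of the large subunit. Rpl26, at the rim of the peptide exit tunnel, had 0 counts in all livers, and Gm15772 covers 95.8% of its exon bases on the same strand. Rpl30 had 0 to 6 counts, with 76.0% of its exon bases under Gm12191, and Rpl34 had 6 to 15 counts, with 67.2% under Rpl34-ps1. Each of these covering entries had 0 counts, so that the files do not measure these 3 messages. The others are paralogs known from other tissues. Rpl10l, a testis paralog of Rpl10, had 0 counts in all 6 livers. Rpl39l, a germ cell paralog of Rpl39, had 1 count in FGF19 liver 3 and 0 elsewhere. Rpl3l, the paralog of Rpl3 in skeletal and cardiac muscle, had 4, 4 and 3 counts in the vehicle livers and 1 in each FGF19 liver.

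Ribosomal protein genes have many processed pseudogenes, and reads that align to several places were left out of the counts. Of all stretches of 100 bases in a member's exons, a median of 45.9% had an exact copy elsewhere in the genome, from 0.283% for Rpl39l to 100% for Rpl28. The levels of highly copied genes are therefore lower limits, although paired reads can be placed by the mate. The 37 tested genes with at least 50% of stretches copied had a median of 166 RPKM, and the other 41 had 160 RPKM. Reads were counted without strand, and Rpl5 shares 47.7%, Rpl31 33.0% and Rps25 29.4% of exon bases with genes on the opposite strand, which makes these counts uncertain.

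The main comparison asked whether FGF19 changed the messenger RNAs of the ribosome. No ribosomal protein gene passed an adjusted p of 0.05 in edgeR's quasi-likelihood test in either direction, compared with 2.84% of all genes tested called lower and 4.56% called higher. Of the 78 genes, 69 had a log2 fold change below 0 and 9 above 0, compared with 50.1% and 49.9% of all genes tested, but the changes were small. Their median log2 fold change was -0.08, which was -0.08 in each subunit and 0.00 over all genes tested. Library medians had an SD of 0.05 among vehicle livers and 0.14 among FGF19 livers, where liver 3 stood apart. The size of the shift lay between these SDs. They are spreads of single libraries, not the error of the difference, and the shift of the median was not tested. DESeq2, limma-voom and edgeR's likelihood ratio test called 0 of the genes as well. Over all genes they called 519, 358 and 579 lower and 642, 544 and 780 higher, in that order. At an unadjusted p of 0.05 there were 5 lower genes and 1 higher gene, beside 11.3% and 11.6% of all genes tested, and at the study's threshold of 0.01 there was none, beside 4.98% and 6.20%. The 95% confidence interval lay within 0.5 of no change on the log2 scale for 73 of the 78 genes.

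**Figure D3:**
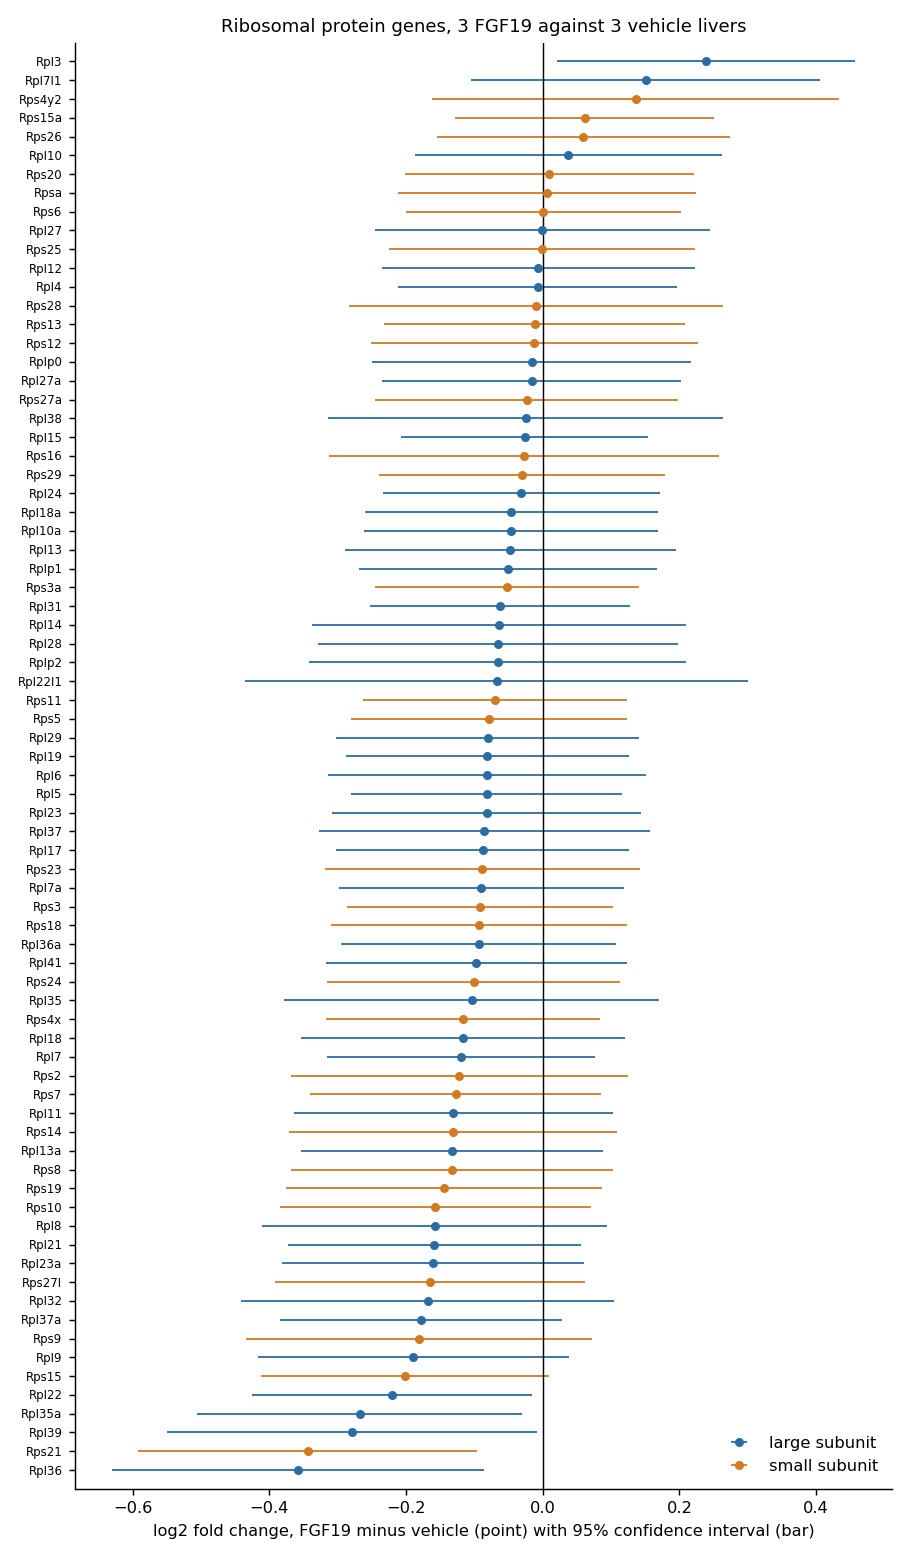
Log2 fold change, FGF19 minus vehicle (horizontal axis), with its 95% confidence interval for the ribosomal protein genes tested (vertical axis, in the order of the fold change), of which 2 are not drawn, 1 of them Rps27 with 14 to 26 reads per liver. Point estimates run from -0.36 for Rpl36 to 0.24 for Rpl3, and the intervals exclude 0 for 5 genes on the lower side and for 1 on the higher side.

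The genes with the lowest fold changes, Rpl36 and Rps21, have 407 and 391 exon bases. Rpl36, a large subunit protein (chr17:56752818-56753669), had 70.1, 74.3 and 83.9 CPM in the vehicle livers and 54.8, 53.6 and 69.9 CPM in the FGF19 livers. Every FGF19 liver was below every vehicle liver, with liver 3 only just below vehicle liver 1. The log2 fold change was -0.36 (SE 0.12, adjusted p = 0.113 with edgeR). Rps21, a small subunit protein whose pyrimidine run and CCGGAAG are shown above (chr2:179992084-179993149), had 58.8, 60.4 and 70.9 CPM with vehicle and 46.4, 47.2 and 56.1 CPM with FGF19. Its groups did not overlap, and its log2 fold change of -0.34 (SE 0.11) had the lowest adjusted p of the members, 0.0964 with edgeR. Rpl35a, one of the genes mutated in Diamond-Blackfan anaemia, had 73.5, 75 and 75.5 CPM with vehicle and 56.9, 57.1 and 72.0 CPM with FGF19 (adjusted p = 0.166 with edgeR), so that liver 3 lay close to the vehicle livers.

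Groups without overlap were no more frequent among these genes than among all genes. FGF19 values were all below vehicle values for 6 of the 78 genes, namely Rpl22, Rpl35a, Rpl36, Rpl37a, Rps15 and Rps21, beside 13.8% of all genes tested. FGF19 values were all above vehicle values for 1 gene, Rpl3, beside 14.5%. Rpl3 is a core protein that reaches towards the site of peptide bond formation (chr15:79908211-79913836). It had 196, 174 and 202 CPM with vehicle and 219, 210.2 and 246 CPM with FGF19, highest in liver 3. Its log2 fold change of 0.24 (SE 0.10, adjusted p = 0.178 with edgeR) was the only one above 0.2.

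**Figure D4:**
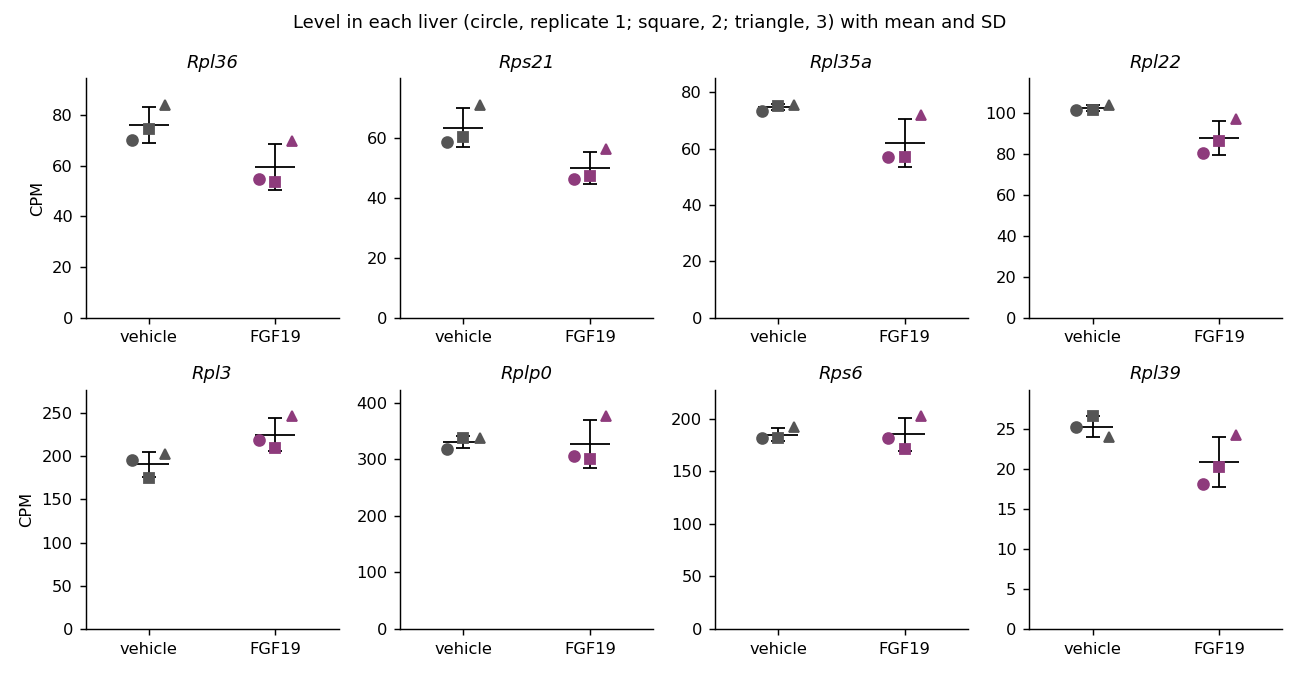
Level in CPM (vertical axes, from 0) in each vehicle and FGF19 liver for 8 ribosomal protein genes, with the mean and SD of 3 livers per group. FGF19 liver 3 (triangle) is the highest FGF19 liver in each panel, and the groups do not overlap for Rpl36, Rps21, Rpl35a, Rpl22 and Rpl3.

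By function, each group of large subunit proteins had a median log2 fold change close to 0. In the stalk, Rplp0, its base, had 318, 337 and 337 CPM with vehicle and 306, 300.1 and 376 CPM with FGF19. Its log2 fold change was -0.02 (95% confidence interval -0.25 to 0.22), and -0.12 without FGF19 liver 3. Rplp0 is 36B4, to which the study normalised its RT-qPCR values, and FGF19 liver 3 had the highest value of all 6 livers. Rplp1 (log2 fold change -0.05), Rplp2 (-0.07) and Rpl12 (-0.01), the other stalk genes, were also within 0.1 of 0, and the median of the 4 stalk genes was -0.03 with and -0.12 without FGF19 liver 3. Rpl5 and Rpl11, which carry the 5S ribosomal RNA and bind Mdm2 when assembly fails, had log2 fold changes of -0.08 and -0.13, and their groups overlapped. Without FGF19 liver 3 the median of this pair was -0.19. The 7 tested genes at the peptide exit tunnel had a median of -0.09, from -0.28 for Rpl39 to -0.01 for Rpl4, which narrows the tunnel, and the median was -0.17 without FGF19 liver 3. Rpl39, the small protein that lines the tunnel, had 25.3, 26.5 and 24.0 CPM with vehicle and 18.1, 20.2 and 24.2 CPM with FGF19 (adjusted p = 0.206 with edgeR), and liver 3 lay among the vehicle livers.

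The small subunit gave similar values. The 9 genes along the path of the messenger RNA had a median log2 fold change of -0.09, with 7 below 0. They ran from -0.20 for Rps15 to 0.06 for Rps26, at the exit of the messenger RNA, with Rps2 at -0.12 and Rpsa at 0.01. Without FGF19 liver 3 the median was -0.15 and 3 of 9 were called lower, beside 7.30% of all genes tested. Rps6, the substrate of the S6 kinases downstream of mTORC1, had 181, 182 and 192 CPM with vehicle and 182, 171 and 202 CPM with FGF19. Its log2 fold change was 0.00, with a 95% confidence interval of -0.20 to 0.20, and its groups overlapped. Without FGF19 liver 3 it was -0.06. Rps27a, which is made as a fusion with ubiquitin, was at -0.02. The 14 tested genes mutated in Diamond-Blackfan anaemia, an inherited failure of red cell formation, had a median of -0.09 (-0.19 without FGF19 liver 3), with Rps19, the first of them to be found, at -0.14 (adjusted p = 0.456 with edgeR). Rpl13a and Rps18, often used as reference genes, were at -0.13 and -0.09, with adjusted p of 0.476 and 0.624 with edgeR.

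Paralogs and X-linked genes showed no called difference either, with a median log2 fold change of -0.09 over 7 genes. Without FGF19 liver 3 the median was -0.14 and 1, Rpl39, was called lower, beside 7.30% of all genes tested. Rpl22, which can be replaced by Rpl22l1, had 102, 102 and 104 CPM with vehicle and 80.3, 86.3 and 96.9 CPM with FGF19, without overlap (log2 fold change -0.22, adjusted p = 0.186 with edgeR), and is, at 2040 exon bases, not a short gene. Rpl22l1 itself was at -0.07 (adjusted p = 0.852 with edgeR). Rpl7l1, a paralog of Rpl7 that acts in ribosome assembly, was at 0.15, and Rps27l, a paralog of Rps27 induced by p53, at -0.17, with overlapping groups in both. Of the 4 X-linked genes, Rpl39 is described above, Rpl10 was at 0.04, Rps4x at -0.12 and Rpl36a at -0.09. Rps4y2 on chromosome 6, which the RefSeq table gives as a synonym of the transcribed pseudogene Rps4l, was at 0.14 with 18.9 RPKM.

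The summed share of the library was compared next, with no test. Ribosomal protein genes took 1.14%, 1.12% and 1.19% of the counts in the vehicle livers (1.15 ± 0.0361, SD, n = 3) and 1.03%, 1.04% and 1.18% in the FGF19 livers (1.08 ± 0.0827, SD, n = 3). FGF19 livers 1 and 2 were below all vehicle livers and liver 3 was among them. Relative to the TMM library size, liver 3 was above them, at 1.22% compared with at most 1.19%. The ratio of large to small subunit counts was 1.428, 1.427 and 1.429 with vehicle and 1.436, 1.440 and 1.443 with FGF19 and so was slightly higher in each FGF19 liver. This rested on Rpl3. Without that gene the ratios were 1.386, 1.389 and 1.387 with vehicle and 1.384, 1.390 and 1.394 with FGF19, and the groups overlapped. An exact permutation test of 3 livers against 3 cannot give a two-sided p below 0.1.

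Without FGF19 liver 3, 13 ribosomal protein genes passed an adjusted p of 0.05 in edgeR's quasi-likelihood test, all lower, beside 7.30% of all genes tested called lower and 8.00% called higher. They included Rpl36, Rpl39, Rpl35a, Rpl32, Rpl22, Rpl9 and Rpl37a of the large subunit and Rps21, Rps9, Rps15, Rps14 and Rps2 of the small subunit. Their log2 fold changes lay between -0.49 and -0.25, with adjusted p between 0.00897 and 0.0493. Rpl36 was at -0.49, Rps21 at -0.43, Rpl39 at -0.40, Rpl35a at -0.39 and Rpl22 at -0.29, while Rpl3 was at 0.17 and was not called (adjusted p = 0.202 with edgeR). Over the 78 genes the median became -0.17 in both subunits, and 74 were below 0, compared with 49.3% of all genes tested. Of the 13 genes, 12 have at most 1000 exon bases, as do 60 of the 78.

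The calls also depended on how a trend with exon length was treated. In 1 such fit, chosen after seeing the data, a robust loess of each library's log2 counts on exon length over the other genes was taken out as an offset. With all 6 livers, 0 ribosomal protein genes were called, beside 4.38% of all genes tested called lower and 5.31% called higher. Their median log2 fold change was 0.01, with 35 of 78 below 0, and the lowest adjusted p was 0.0640, for Rpl3 (log2 fold change 0.28). A least-squares loess, tried before the robust one, left the median of all genes at -0.03 and that of the members at -0.10, with 71 of 78 below 0. It called 3 members lower (Rpl36, Rps21 and Rpl35a, with adjusted p of 0.0306, 0.0444 and 0.0382 in edgeR), beside 5.62% of all genes, and 0 higher, beside 4.97%. With the robust loess and without FGF19 liver 3, 0 were called again, beside 5.96% and 6.75%, with a median of -0.01 and 42 of 78 below 0. Rpl36 was then at -0.24 and Rpl22 at -0.26, the lowest of the members. The shift of the members below 0 was thus seen with 1 way of removing the trend and not with the other, and the part of exon length in it was not settled by these fits.

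**Figure D5:**
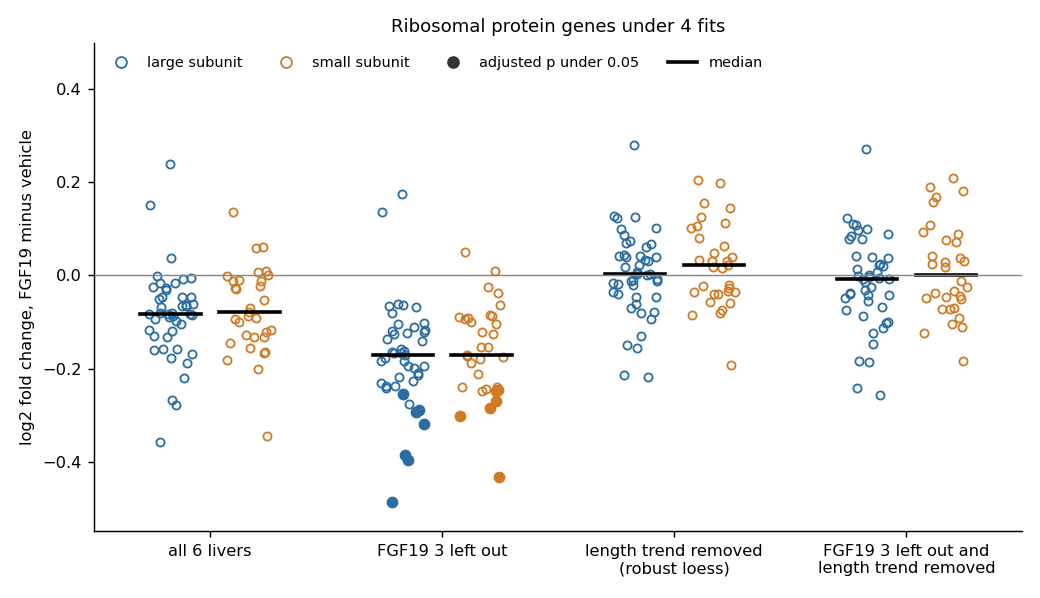
Log2 fold change, FGF19 minus vehicle (vertical axis), of large and small subunit genes in 4 edgeR fits (horizontal axis), with the median of each subunit as a bar; filled points have an adjusted p under 0.05, and Rps27 is not drawn. Most genes lie below 0 in the first fit (69 of 78) and without FGF19 liver 3 (74 of 78), where 13 are called, and lie around 0 once the length trend is removed by the robust loess; with the least-squares loess, not drawn, 71 of 78 were below 0.

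Variation between livers was also measured. The median coefficient of variation of the ribosomal protein genes was 4.65% over vehicle livers and 10.5% over FGF19 livers, compared with 9.75% and 11.5% for the other genes tested. The members thus had a lower coefficient than other genes among vehicle livers and a similar coefficient among FGF19 livers. Genes were not matched for level, and the members had a median of 131 CPM. The part of read depth in this difference was not tested. By start motif, with no test of the difference, the median log2 fold change was -0.07 for the 14 tested genes with a pyrimidine start and -0.08 for the other 64. It was -0.11 for the 18 with CCGGAAG and -0.07 for the other 60. The 37 genes with at least 50% of stretches copied and the 41 with less had medians of -0.08 each.

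Other genes of translation were then read beside the ribosomal proteins. Among ribosomal proteins whose names do not follow the rule, Fau, a fusion with a small subunit protein, had a log2 fold change of -0.15, with Gnb2l1, the scaffold also called Rack1, at -0.05 and Rpl36al at 0.16. The median of this list was -0.10, with 0 called, and -0.17 without FGF19 liver 3. All 14 genes of elongation factors and other known TOP messages had log2 fold changes below 0, with a median of -0.12. Without FGF19 liver 3 the median was -0.16 and 2 were called lower (7.30% of all genes tested), and with the robust length trend removed it was -0.10 and 2 were called lower (4.38% of all genes tested). Their summed level was 7724 to 8147 CPM in the vehicle livers and 6983, 6876 and 7251 CPM in the FGF19 livers, so that here FGF19 liver 3 was also below every vehicle liver. With all 6 livers only Eif4b, a helper of the initiation helicase, was called (2.84% of all genes tested were lower), at 382 ± 33.2 CPM with vehicle and 274 ± 14.6 CPM with FGF19 (SD, n = 3 each; log2 fold change -0.48, adjusted p = 0.0170 with edgeR).

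Of 32 initiation factors tested, 1 was called in each direction, beside 2.84% of all genes called lower and 4.56% called higher. Eif6, which keeps the large subunit from joining too early, rose from 60.3 ± 2.00 to 86.8 ± 3.44 CPM (SD, n = 3 each; log2 fold change 0.53, adjusted p = 0.00510 with edgeR). Eif4a2, an initiation helicase, fell from 209.0 ± 29.3 to 146 ± 9.62 CPM (SD, n = 3 each; log2 fold change -0.52, adjusted p = 0.0262 with edgeR). The median of the 32 was 0.05, and without FGF19 liver 3 it was 0.08, with 1 called lower and 2 higher, beside 7.30% and 8.00% of all genes. None of 67 ribosome assembly factors was called (median -0.01), and without FGF19 liver 3 there were 2 lower and 2 higher (median -0.01), where the shares over all genes were the same 7.30% and 8.00%. Of 20 genes of RNA polymerase I and its regulators, 1 was called, the growth regulator Myc, at 12.4 ± 5.16 CPM with vehicle and 4.63 ± 0.378 CPM with FGF19 (SD, n = 3 each; log2 fold change -1.42, adjusted p = 0.0128 with edgeR). The median of the 20 was -0.01, and -0.12 without FGF19 liver 3, again with 1 called lower. Over all genes the shares called lower were 2.84% and 7.30%. On the mTORC1 and S6 kinase axis, 2 of 21 were called higher with all 6 livers, beside 4.56% of all genes. Without FGF19 liver 3 there were 1 lower and 4 higher, beside 7.30% and 8.00%, and the median was -0.05 with and -0.02 without that liver. Eef2k, the kinase that slows elongation, was at 0.56 (adjusted p = 0.0341 with edgeR) and Rps6ka1 at 0.36 (adjusted p = 0.0458 with edgeR). Eif4b, Eif6, Eif4a2, Myc, Eef2k and Rps6ka1 were also called without FGF19 liver 3, with log2 fold changes of -0.43, 0.51, -0.48, -1.48, 0.60 and 0.38 in that order.

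The mitochondrial ribosome gave a parallel. Its 76 tested protein genes had a median log2 fold change of -0.10, with library medians of -0.16 and -0.15 in FGF19 livers 1 and 2 and of 0.03 in FGF19 liver 3. Mrpl15 (-0.40, adjusted p = 0.0263 with edgeR) and Mrpl34 (-0.40, adjusted p = 0.0423 with edgeR) were called lower, and Mrps18b (0.37, adjusted p = 0.0452 with edgeR) was called higher, beside 2.84% and 4.56% of all genes. Without FGF19 liver 3 their median was -0.17, with 9 called lower and 1 higher, beside 7.30% and 8.00%. With the robust length trend removed it was -0.03, with 4 called lower and 2 higher, beside 4.38% and 5.31%.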

How the data were processed

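Paired-end reads of 100 bases from 6 livers were aligned by the authors with STAR (2.5.3a in the submitters' processing notes) and counted on exons of mm9 genes with featureCounts 1.5.2. Per the file headers, the deposited values are raw counts per gene: strand was not used, reads placed at several sites or on more than 1 gene were dropped, and mates were counted singly. A deposited table of the authors' comparison holds log2 fold changes, mean log2 CPM, p-values and FDR, and was not used.

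The edgeR package (4.0.16, in R 4.3.3) was used: filterByExpr with the group left 12559 genes, scaling was by TMM, groups were compared by its quasi-likelihood test, and p-values were adjusted over these genes by the method of Benjamini and Hochberg. The study names an edgeR pipeline but no kind of test. Labels mark separate mice, and a replicate number only. Total counts were 18994654 to 22920056. Merged exon lengths in the mm9 reference equalled those of the files for all 23102 genes at 1 locus. Start windows and exact copies were read from that genome.

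Named genes were members with an adjusted p under 0.05, genes chosen by role, the 3 highest and the 3 lowest in RPKM, members not tested, and, of other lists, up to 3 called genes with the largest change. The other genes named were chosen after their values were seen. The members and lists were chosen with earlier results of these data known. Alternatives were DESeq2 1.42.0, limma-voom (limma 3.58.1), the likelihood ratio test, other scalings and filters, a replicate block, leave-one-out fits, and, added after seeing the data, removal of the trend with exon length (loess span 0.3). The main test, DESeq2, limma-voom, the likelihood ratio test and the robust length-trend fit were run on simulated counts. The main test called 29 of 100 genes changed by 0.5 on the log2 scale, 99 of 100 changed by 1, and 3 unchanged genes. The simulated counts had 1 dispersion for all genes, no trend with exon length and no library that stood apart. They cannot show how the fits handle such a trend or library. The values of 2 genes are not reported singly here.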

Additional observations from a re-analysis of the deposited data

How the results depend on the processing

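No ribosomal protein gene was called under DESeq2, limma-voom, the likelihood ratio test, no TMM scaling, TMM without these genes, no filter, a stricter filter or the replicate block. Over all genes these settings called 164 to 579 lower and 370 to 780 higher. Leaving out each library in turn gave 0 to 13 ribosomal protein genes called lower, with the 13 only without FGF19 liver 3, and medians of the log2 fold change from -0.17 to -0.03. Removing the length trend by a least-squares loess called 3 lower and by the robust loess 0, with medians of -0.10 and 0.01, and the robust one was preferred, after seeing the data, because it left the median of all genes at 0.00. Over all genes, 357 were called lower and 573 higher. The number lower was 579 with the likelihood ratio test, 626 at p under 0.01, 550 with the robust length trend removed, 706 with the least-squares one, 757 with the robust one removed and FGF19 liver 3 left out, and 91 to 926 without 1 library. The number higher was 236 to 1015 without 1 library. Same-numbered livers did not deviate together (correlations -0.03, -0.18 and -0.18), and the replicate block gave 164 lower and 370 higher. The cause of these shifts was not tested. With 3 livers a group the 95% intervals reached a median of 0.22 to either side on the log2 scale before adjustment, and changes near 0.36 were called for some genes (Rps6ka1) and not for others (Rpl36).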
